A study of Mus musculus with 6 samples.

Results

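The genes described here are 10 members of the vascular endothelial growth factor (VEGF) system and the neighbouring angiopoietin system: the ligand genes Vegfa, Vegfb, Vegfc and Pgf, the receptor genes Flt1, Kdr and Flt4, the neuropilin genes Nrp1 and Nrp2, and Angpt1. They were taken by name from a table of 19936 genes, and 10 of 10 were measured. A gene with several single-gene probe sets is represented by its brightest one, chosen by mean level over the 6 arrays. Each of the 10 has 1 such probe set, so this choice had no effect on them, but the set was put together when rises of Flt1 and Kdr were already known from these arrays. Their adjusted p-values below are therefore no independent evidence.

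RNA from mouse embryonic fibroblast (MEF) cells of a Tet-off line was measured on 6 Affymetrix arrays. The HA-Fbxl10 group held 3 RNA samples of Tet-off cells carrying a plasmid with HA-tagged Fbxl10 cDNA together with a hygromycin resistance plasmid, from clones picked for expression of the tagged protein. The control group was made up of 3 RNA samples from Tet-off cells without these plasmids. Both groups share the Tet-off background, and the labels do not say how many clones gave the HA-Fbxl10 samples. No sample carried the resistance plasmid alone, so transfection and clone picking cannot be told apart from Fbxl10 itself. The samples are called independent without a statement that they were separate cultures, so the p-values below reflect the scatter among these arrays, which may be technical. Fbxl10 is now named Kdm2b and encodes a histone demethylase that binds CpG dinucleotides through a zinc finger. Its log2 level averaged 9.70 in HA-Fbxl10 cells and 7.37 in control cells. Among 16 fibroblast marker genes 14 lay above background, while Lum and Fap did not.

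VEGF ligands are secreted dimers that bind tyrosine kinase receptors, mostly on endothelial cells, and drive the growth of blood and lymphatic vessels. Neuropilins are co-receptors without a kinase that bind VEGFs as well as class 3 semaphorins. Angiopoietins act through a separate receptor, Tie2, which is encoded by Tek. Fibroblasts are best known here as a source of the ligands rather than as cells that respond to them.

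All levels below are log2 values made by robust multi-array averaging (RMA), 1 value per probe set and array, so transcript forms that share a probe set, such as those for membrane-bound and soluble Flt1, cannot be told apart. Differences are HA-Fbxl10 minus control with the standard error (SE) of a limma fit over all 19936 genes, and a gene was called when its adjusted p over all genes was under 0.05. The table has no detection calls. Background was therefore gauged by 1027 olfactory receptor genes, which fibroblasts are not expected to use, and their 95th percentile lay between 3.99 and 4.12 over the arrays. Of these genes 11 were called. The median of all genes lay between 5.29 and 5.41. In RNA of whole cultures, more expressing cells and more RNA per cell cannot be told apart for any gene.

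Of the 10 genes, 5 were called higher in HA-Fbxl10 cells (Flt1, Vegfc, Nrp1, Kdr and Nrp2), 1 was called lower (Angpt1), and 4 did not pass the test (Vegfa, Vegfb, Pgf and Flt4). Over all genes 21.1% were called, 10.5% higher and 10.6% lower. Among genes whose mean lay above the median level the share was 37.0%, and 7 of the 10 members lay there, of which 5 were called. The members' median difference was 0.14 against -0.0043 for all genes, and their median size of change was 0.37 against 0.11. In 7 of 10 genes the arrays of the 2 groups did not overlap, as was the case for 36.0% of all genes. The all-gene figures for size and overlap include dim genes and were not computed for genes above the median level alone.

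**Figure D1:**
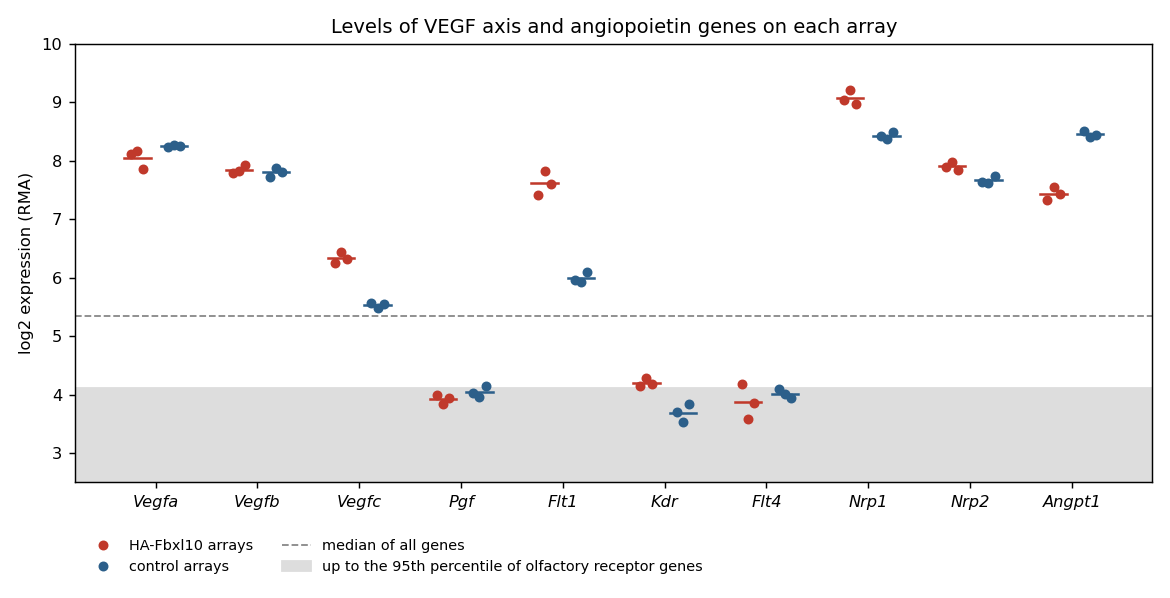
Log2 expression of each gene on each array (points) with group means (bars), HA-Fbxl10 left of control. Pgf, Kdr and Flt4 lie in or just above the grey band, which ends at the highest 95th percentile of olfactory receptor genes (4.12), and the dashed line marks the middle of the range of array medians.

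The Fbxl10 protein recognises CpG, so the CpG content of RefSeq's promoter windows is shown for the called receptor, ligand and co-receptor genes with the largest rises. The 250 bases before the transcript start used in the RefSeq promoter table (GRCm38.p6) are given 5′ to 3′ on the gene's own strand, with each CpG in capitals. That start is the outermost base of the gene span for Vegfc, while it lies inside the span by 427 bases for Flt1, 617 for Kdr and 482 for Nrp1, so those windows lie within the spans given below. The window of Flt1 is chr5:147726012-147726261 (minus strand), that of Kdr chr5:75978456-75978705 (minus strand), that of Vegfc chr8:54077282-54077531 (plus strand) and that of Nrp1 chr8:128358823-128359072 (plus strand).
Flt1: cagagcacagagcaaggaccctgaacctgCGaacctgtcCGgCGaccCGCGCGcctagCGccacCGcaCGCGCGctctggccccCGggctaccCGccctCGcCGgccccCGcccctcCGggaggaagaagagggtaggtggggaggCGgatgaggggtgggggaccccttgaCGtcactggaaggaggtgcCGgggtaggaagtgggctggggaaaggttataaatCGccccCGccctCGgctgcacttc
Kdr: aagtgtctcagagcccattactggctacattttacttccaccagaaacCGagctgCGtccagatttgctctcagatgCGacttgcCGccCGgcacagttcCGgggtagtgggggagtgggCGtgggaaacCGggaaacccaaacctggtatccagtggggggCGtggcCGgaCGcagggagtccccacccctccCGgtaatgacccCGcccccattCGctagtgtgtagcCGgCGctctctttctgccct
Vegfc: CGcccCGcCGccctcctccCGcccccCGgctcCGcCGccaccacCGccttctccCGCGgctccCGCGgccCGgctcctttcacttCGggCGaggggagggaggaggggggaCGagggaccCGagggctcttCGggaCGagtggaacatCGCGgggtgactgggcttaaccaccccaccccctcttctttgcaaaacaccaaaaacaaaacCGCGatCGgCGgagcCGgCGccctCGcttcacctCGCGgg
Nrp1: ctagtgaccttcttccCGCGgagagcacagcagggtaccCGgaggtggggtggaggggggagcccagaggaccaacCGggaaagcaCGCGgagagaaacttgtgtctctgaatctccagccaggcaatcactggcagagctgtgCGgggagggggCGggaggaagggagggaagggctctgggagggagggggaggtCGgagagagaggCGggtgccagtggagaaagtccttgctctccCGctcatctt
The Vegfc window holds 30 CpG, that of Flt1 23, that of Kdr 16 and that of Nrp1 11. Over 32817 promoter windows of this length the median was 6 and the upper quartile 16. The Nrp2 window holds 32. Angpt1 had no window, so the called genes compared here are those that rose. The windows of genes that were not called hold 26 for Vegfb, 16 for Flt4, 20 and 7 for the start sites of Pgf, and 11 and 7 for those of Vegfa, so the CpG counts of called and uncalled genes overlapped. The letters ACGTG, the core of the hypoxia response element, were searched on both strands and occur in 1 of the Vegfa windows, whose start lies 7214 bases inside the gene, and in none of the other windows of the members, against 16.6% of all windows. The letters CCGGAA, an ETS factor motif searched on both strands, occur among the members in the Kdr window alone, against 12.0% of all windows. Each of these motifs contains a CpG. Only the 250 bases before each start were searched, so matches farther from a start were not seen.

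Among the ligands, Vegfc changed and the others did not pass the test. Vegfc encodes the main growth factor for lymphatic endothelium, a ligand of the receptor encoded by Flt4. Its log2 level was 6.25, 6.44 and 6.33 in HA-Fbxl10 replicates 1 to 3, against 5.57, 5.49 and 5.55 in control replicates 1 to 3. The groups lay well apart, and the control values were just above the median of all genes. The difference was 0.80 ± 0.07 (SE, limma adjusted p = 7.48e-05), or 1.74-fold, which was the 140th largest rise among the 19936 genes. The gene lies on chromosome 8 (54077532-54186454, GRCm38.p6).

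Vegfa, which encodes the founding ligand and binds both Flt1 and Kdr, read 8.12, 8.17 and 7.86 in HA-Fbxl10 cells, against 8.24, 8.27 and 8.26 in control cells. Every HA-Fbxl10 array lay below every control array, with replicate 3 lowest, while the control arrays were nearly equal. The difference of -0.21 ± 0.09 (SE) did not pass the test (limma adjusted p = 0.123). Its unadjusted 95% interval ran from -0.40 to -0.02. The 30 nearest genes above the median level around Vegfa on chromosome 17 had a median difference of 0.13, with 10 higher and 5 lower. Of all genes above the median level 19.2% were called higher and 17.8% lower. Once a running median of 31 neighbouring genes was removed, the difference of Vegfa was -0.32 with a limma adjusted p of 0.0387. It was -0.29 (adjusted p = 0.0399) when the chromosome's median was removed, and -0.12 (adjusted p = 0.339) without HA-Fbxl10 replicate 3. Over the 17 alternative settings the adjusted p ran from 0.0387 to 0.339.

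Vegfb, whose product binds Flt1 and the neuropilin Nrp1, averaged 7.85 ± 0.08 in HA-Fbxl10 cells and 7.81 ± 0.08 in control cells (SD, n = 3 each). The values of the 2 groups overlapped, and the difference of 0.04 had an unadjusted 95% interval from -0.12 to 0.20. The 30 nearest genes above the median level around Vegfb had a median difference of -0.13, with 0 higher and 11 lower. With the running median of neighbours removed, the difference of Vegfb was 0.19 (limma adjusted p = 0.0954). It was 0.16 (adjusted p = 0.181) with the chromosome median removed. Pgf encodes placental growth factor, another ligand of Flt1. It averaged 3.93 ± 0.08 in HA-Fbxl10 cells and 4.04 ± 0.09 in control cells (SD, n = 3 each), and 5 of its 6 values lay at or under the background gauge. The difference of -0.11 ± 0.07 (SE) did not pass the test (limma adjusted p = 0.375), with an unadjusted 95% interval from -0.28 to 0.06 on this near-background scale. The VEGF family gene that is no member, Vegfd, encodes the closest relative of Vegfc and changed the other way. It read 7.40, 7.32 and 7.52 in HA-Fbxl10 cells, against 7.84, 7.79 and 8.07 in control cells, or -0.49 ± 0.09 (SE) on subtraction, with a limma adjusted p of 0.0039.

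The receptor gene Flt1 had the largest change of the set. It encodes VEGF receptor 1, which binds Vegfa tightly but signals weakly, and whose soluble form traps ligand. Flt1 read 7.42, 7.83 and 7.61 in HA-Fbxl10 replicates 1 to 3, against 5.96, 5.93 and 6.09 in control replicates 1 to 3. The lowest HA-Fbxl10 array lay far above the highest control array, and the control values were themselves above background. The difference was 1.62 ± 0.10 (SE, limma adjusted p = 1.21e-05), or 3.08-fold, with an unadjusted 95% interval from 1.39 to 1.86. It was the 19th largest rise among 19936 genes. The gene lies on chromosome 5 (147561604-147726438, GRCm38.p6).

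Kdr encodes VEGF receptor 2, the principal signalling receptor of endothelial cells, and was dim. It read 4.14, 4.29 and 4.18 in HA-Fbxl10 cells, against 3.70, 3.53 and 3.84 in control cells. The groups did not overlap, but the control values lay under the background gauge on 3 of 3 arrays and the HA-Fbxl10 values only just above it. The measured difference was 0.51 ± 0.09 (SE, limma adjusted p = 0.00277). Set against the gauge in place of the control values, the HA-Fbxl10 level was 1.10-fold higher. Some olfactory receptor genes lie above the gauge by its definition, so this is no firm minimum. The size of the change in Kdr is thus poorly known. Kdr lies on chromosome 5 (75932827-75979072, GRCm38.p6).

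Flt4 encodes VEGF receptor 3, the receptor of lymphatic endothelium for Vegfc. It read 4.18, 3.58 and 3.86 in HA-Fbxl10 cells, against 4.10, 4.02 and 3.94 in control cells. The values of the 2 groups overlapped, the HA-Fbxl10 arrays scattered widely, and 1 array of each group lay above the gauge. The difference of -0.14 ± 0.13 (SE) did not pass the test (limma adjusted p = 0.531), and its unadjusted 95% interval ran from -0.44 to 0.15.

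Both neuropilin genes were well above background in both groups and were called higher. Nrp1 encodes a co-receptor for Vegfa and for the semaphorin Sema3a. It read 9.05, 9.21 and 8.98 in HA-Fbxl10 cells, against 8.43, 8.38 and 8.49 in control cells. The groups were apart by more than the spread within either. The difference was 0.65 ± 0.08 (SE, limma adjusted p = 0.0004), or 1.57-fold. With the running median of neighbours removed, the difference was 0.40 (adjusted p = 0.00571). Nrp1 lies near a chromosome end, where that window was cut short and held far fewer than 31 genes. With the chromosome median removed, the difference was 0.52 (adjusted p = 0.00102). Its adjusted p over the alternatives ran from 2.94e-06 to 0.00571. Nrp1 lies on chromosome 8 (128358591-128505476, GRCm38.p6).

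Nrp2 encodes a co-receptor for Vegfc and for Sema3f. It read 7.89, 7.97 and 7.85 in HA-Fbxl10 cells, against 7.63, 7.63 and 7.74 in control cells. The groups were apart, though by a small margin. The difference of 0.24 ± 0.07 (SE, limma adjusted p = 0.0349), or 1.18-fold, did not hold its call when arrays were left out. Without control replicate 1 or 2, or without HA-Fbxl10 replicate 1, 2 or 3, the adjusted p was 0.0547 to 0.114, and without control replicate 3 it was 0.0304. With the running median of neighbours removed the difference was 0.16 (adjusted p = 0.111), and with the chromosome median removed it was 0.19 (0.0642).

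Angpt1 was the member that fell. It encodes angiopoietin 1, the activating ligand of Tie2, which is made by mural and mesenchymal cells and steadies vessels. Angpt1 read 7.33, 7.56 and 7.44 in HA-Fbxl10 cells, against 8.51, 8.41 and 8.45 in control cells. The highest HA-Fbxl10 array lay well below the lowest control array, and both groups were far above background. The difference was -1.02 ± 0.08 (SE, limma adjusted p = 2.76e-05), which is 2.02-fold lower and the 113th largest fall among 19936 genes. Of all genes 0.958% differed by at least 2-fold in either direction. HA-Fbxl10 replicate 2 was the highest of its group in 6 of 6 called genes, and without it the difference was 1.52 for Flt1 and -1.07 for Angpt1. The gene lies on chromosome 15 (42424667-42676977, GRCm38.p6).

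**Figure D2:**
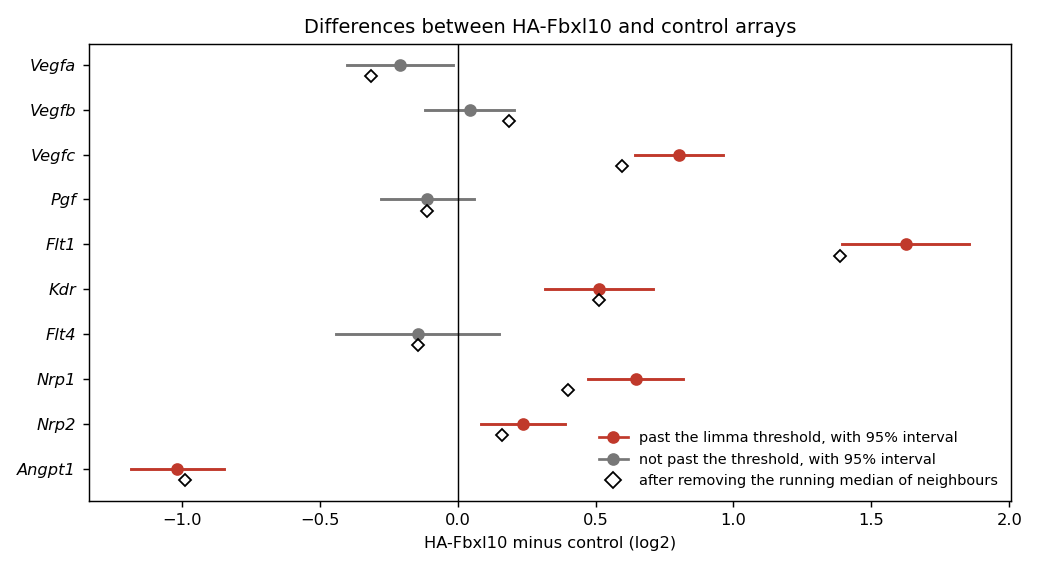
Log2 difference, HA-Fbxl10 minus control, for each gene, with unadjusted 95% intervals of the limma fit (lines), and the difference after a running median of 31 neighbouring genes was removed (diamonds). Flt1 stands at 1.62 and Angpt1 at -1.02, and the diamond of Nrp1 lies at 0.40 against 0.65 for its point. Near the chromosome end where Nrp1 lies, the running window was cut short and held far fewer than 31 genes. Pgf, Kdr and Flt4 lay below the median level, so their values were left as they were by the running median step.

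The remaining genes of the VEGF family and of the angiopoietin and Tie system were called about as often as all genes. Of 10 measured, 1 rose, 1 fell and 8 did not pass the test, which is 20.0% called against 21.1% of all genes, and their median difference was 0.02. The 1 that rose was Svep1, a large extracellular matrix protein gene, at 0.56 ± 0.12 (SE, limma adjusted p = 0.01), and the 1 that fell was Vegfd. Angpt2, whose product can block Angpt1 on Tie2, averaged 5.04 in HA-Fbxl10 cells and 4.89 in control cells, and its difference of 0.15 ± 0.08 (SE) did not pass the test (adjusted p = 0.223). Angpt4 had a difference of 0.18 ± 0.08 (adjusted p = 0.136). Tek, the gene of the angiopoietin receptor Tie2, lay under the background gauge on 6 of 6 arrays.

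Of the markers of endothelial cells, the cell type in which Flt1, Kdr and Flt4 are best known, none passed the test. Limma called 0 of 21 such markers, with 0 at an unadjusted p under 0.05, and their median difference was -0.04. Over all genes 21.1% were called, and 37.0% of genes above the median level. Their mean level per array ran from 4.57 to 4.76 in HA-Fbxl10 cells and from 4.67 to 4.75 in control cells. That mean lies below the median of all genes (5.29 to 5.41), where calls were fewer, so 0 calls say little about these markers. Pecam1, Cdh5, Emcn, Sox17, Mmrn2 and Clec14a lay at or under the background gauge on 6 of 6 arrays. Cd34, which fibroblasts also express, was high in both groups (10.4 in HA-Fbxl10 cells and 10.3 in control cells). Monocytes, another cell type that expresses Flt1, had 1 of 12 markers called, Cd14, which fell by 0.45 ± 0.13 (SE, limma adjusted p = 0.0357). That call ended without HA-Fbxl10 replicate 1 or 3 or control replicate 1 or 3 (adjusted p of 0.085 to 0.119), with quantile normalisation (0.07) and with the running median removed (0.0916). The mean level of the monocyte list ran from 4.03 to 4.07 in HA-Fbxl10 cells and from 4.08 to 4.11 in control cells. Of 16 fibroblast markers 5 fell and 0 rose (31.2% called, against 21.1% of all genes and 37.0% of genes above the median level), with Col3a1 at -0.79 ± 0.07 and S100a4 at -0.64 ± 0.08 the largest falls. With the running median of neighbours removed S100a4 was -0.30 (limma adjusted p = 0.0347). Of 13 pericyte and smooth muscle markers 2 rose and 2 fell (30.8% called). Mcam, an adhesion receptor gene, rose by 1.45 ± 0.08 and the proteoglycan gene Cspg4 rose by 0.74 ± 0.07 (0.48 with the running median removed), while Anpep fell by 0.70 ± 0.09 and Notch3 fell by 0.54 ± 0.11, and the pericyte marker Rgs5 lay under the gauge on all arrays. The part of fibroblast and pericyte markers in the changes of Angpt1 and Flt1 was not tested.

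Class 3 semaphorins, which share the neuropilins with the VEGFs, and their plexin receptors changed often and in both directions. Of 13 genes in this list 6 rose, 4 fell and 3 did not pass the test, so 76.9% were called, against 21.1% of all genes and 37.0% of genes above the median level. The list's median difference was 0.11. Sema3c rose by 1.20 ± 0.07 (SE, limma adjusted p = 5.31e-06), with a mean level of 8.71 in HA-Fbxl10 cells and 7.50 in control cells. Sema3b rose by 0.72 ± 0.06. Plxna3 fell by 0.72 ± 0.08 and Plxnd1, the receptor gene for Sema3e, fell by 0.62 ± 0.07. Genes of the list beyond the largest changes are named after their values were seen. The neuropilin ligand genes Sema3a (0.55 ± 0.06) and Sema3f (0.56 ± 0.06) rose, as did Plxna2 (0.53 ± 0.08), while Sema3e fell by 0.34 ± 0.07 and Gipc1, whose product binds the neuropilin tail, fell by 0.21 ± 0.06. Sema3d was called higher at 0.56 ± 0.08, but its mean was 4.51 in HA-Fbxl10 cells and 3.95 in control cells, where 1 of 3 arrays lay above the background gauge, so the size of its change is poorly known. Gipc1 lost its call without any 1 of the 6 arrays (adjusted p of 0.0588 to 0.0936).

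Sema3a, Sema3c, Sema3d and Sema3e lie on chromosome 5, as do Flt1 and Kdr, and Sema3b and Sema3f lie on chromosome 9. Genes above the median level had a median difference of 0.17 on chromosome 5 and 0.22 on chromosome 9. With the running median of neighbours removed, the difference was 1.01 for Sema3c, 0.37 for Sema3a, 0.37 for Sema3f and 0.54 for Sema3b, and each of these was still called. Sema3e was -0.51 under that step. That of Plxnd1 was -0.33 (limma adjusted p = 0.016).

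Genes that store, cleave or hold back VEGF included some called in each direction. Of 19 measured, 3 rose, 5 fell and 11 did not pass the test, with a median difference of -0.09. The 42.1% called stood against 21.1% of all genes and 37.0% of genes above the median level. Ptn, a heparin-binding growth factor gene, fell by 1.50 ± 0.08 (SE), and Mmp9, a gelatinase gene, fell by 1.42 ± 0.09. Ccn2, whose product binds Vegfa, rose by 0.90 ± 0.06, and Ext1, an enzyme of heparan sulphate synthesis, rose by 0.49 ± 0.06.

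Among genes listed under VEGF receptor signalling, 11 of 29 rose, 3 fell and 15 did not pass the test, with a median difference of 0.08. The 48.3% called stood against the same 37.0% of genes above the median level. The largest rises were those of Hspb1, a small heat shock protein gene (0.83 ± 0.09, SE), and Pik3r1, the regulatory subunit gene of PI3 kinase (0.56 ± 0.07, and 0.32 with the running median removed). Dusp5, a phosphatase gene that restrains ERK, fell by 0.63 ± 0.07, and Nr4a1, an orphan nuclear receptor gene, fell by 0.47 ± 0.07. Many of these genes serve other receptors too.

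Vegfa is a classical target of the hypoxia-inducible factors, so the hypoxia pathway was set beside it. Of 11 regulators of the pathway 2 rose, 2 fell and 7 did not pass the test, with a median difference of -0.07. The 36.4% called stood against 21.1% of all genes and 37.0% of genes above the median level. Egln1, an oxygen-sensing prolyl hydroxylase gene, rose by 0.59 ± 0.08 (SE) and Arnt2 rose by 0.36 ± 0.09. Arnt, the partner of the hypoxia-inducible factors, fell by 0.48 ± 0.08 and Vhl, which targets those factors for destruction, fell by 0.27 ± 0.07. The calls of Vhl and Arnt2 were not stable. Vhl kept its call among single arrays left out only without control replicate 2, with adjusted p of 0.0504 to 0.0809 for the other 5 arrays, and its difference was 0.04 with the running median removed. Arnt2 lost its call without HA-Fbxl10 replicate 1 or 3 (0.0575 and 0.0604) and with the running median removed (0.26, adjusted p = 0.12). Arnt kept its call under that step, at -0.23 (adjusted p = 0.0451). Hif1a had a difference of -0.16 ± 0.06 that did not pass the test (adjusted p = 0.128), but it was called lower in 4 of 17 alternatives, with quantile normalisation (adjusted p = 0.0222), a variance trend (0.026), a robust trend (0.0254) or the chromosome median removed (0.042). Of 18 genes that hypoxia induces, 3 rose, 5 fell and 10 did not pass the test, with a median difference of -0.09. Their 44.4% called stood against the same 21.1% and 37.0%. Adm, the gene of the vasoactive peptide adrenomedullin, rose by 1.84 ± 0.09 and Higd1a rose by 0.64 ± 0.07, while the glucose transporter gene Slc2a1 fell by 0.42 ± 0.06 and Kdm3a fell by 0.45 ± 0.10. Kdm3a lost its call without HA-Fbxl10 replicate 3 (0.053) and with the running median removed (-0.28, adjusted p = 0.0857).

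**Figure D3:**
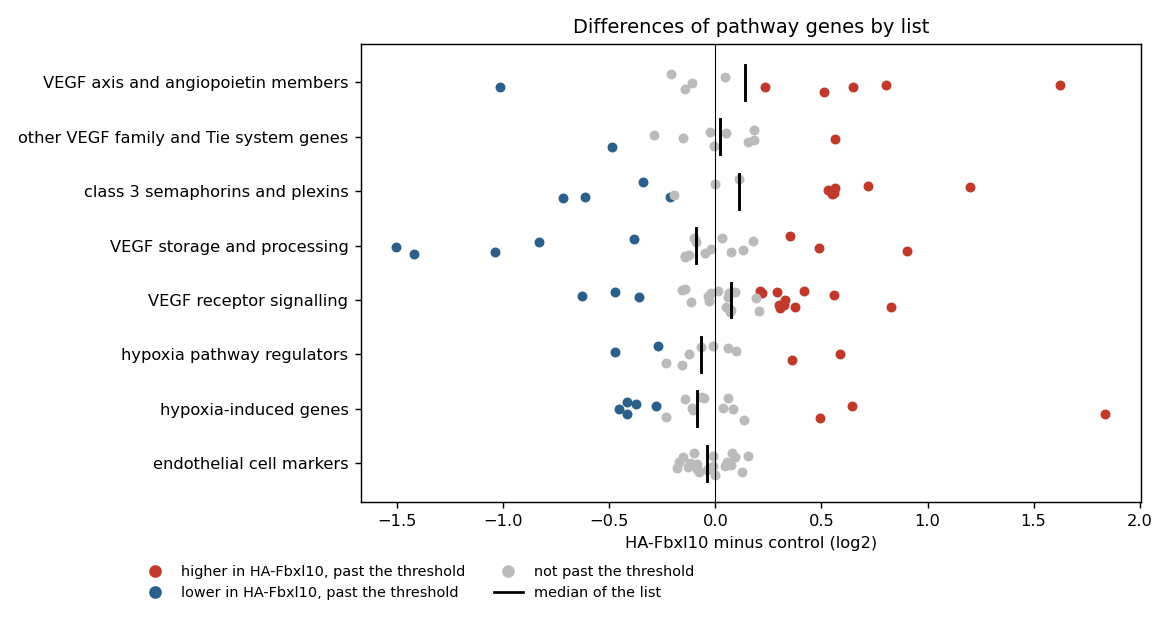
Log2 difference, HA-Fbxl10 minus control, for each measured gene (points) of the 10 members and of related lists, with the median of each list (black bars). The endothelial markers lie close to 0 with none past the threshold, while the semaphorin and plexin genes spread from -0.72 to 1.20.

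Median differences of genes above the median level ranged from -0.23 on chromosome 3 to 0.22 on chromosome 9, so each called member was set beside the 30 nearest genes above the median level, 15 on either side (16 for Nrp1, which lies near a chromosome end). Among all genes above the median level 19.2% were called higher and 17.8% lower. Around Flt1 the median difference was 0.24, with 14 higher and 1 lower, and no neighbour exceeded 0.67, against 1.62 for Flt1. The nearest genes to Flt1 were Pan3 (0.42, limma adjusted p = 0.00885) and Pomp (0.18, adjusted p = 0.0891). The widest neighbour changes named next were picked out after their values were seen. Around Kdr the median was 0.22, with 12 higher and 3 lower, Tec at 1.14 exceeded Kdr (0.51), and its nearest genes lay on opposite sides of 0, Pdgfra at -0.30 and Srd5a3 at 0.26. Around Vegfc the median was 0.18, with 12 higher and 1 lower. Of its nearest genes, Neil3 (0.04) was not called and Spcs3 (-0.22) was called lower (limma adjusted p = 0.026). The call of Spcs3 held in 10 of 17 alternative settings. The more distant Tll1, at 2.31, exceeded Vegfc (0.80). Around Nrp1 the median was 0.15, with 5 higher and 1 lower, no neighbour exceeded 0.59, against 0.65 for Nrp1, and the nearest genes were Pard3 at 0.12 and Itgb1 at 0.25. Around Nrp2 the median was 0.06, with Pard3b at 0.13 and Ino80d at 0.05 as the nearest, and Trak2 at 0.65 exceeded Nrp2 (0.24). Around Angpt1 the median was -0.03, with 6 higher and 3 lower, and the nearest genes were Oxr1 at -0.17 and Rspo2 at -0.43, while Cthrc1, at -1.48, fell further than Angpt1 (-1.02). Of the called members, Flt1, Vegfc, Nrp1 and Angpt1 were called in 17 of 17 alternative settings. Kdr was called in 16 of the 16 that kept it, but the 2 that remove positional medians left its value as it was, since it lies below the median level. Nrp2 was called in 9 of 17. The settings with other probe set rules are among these but could not change a member's difference, since each member has 1 single-gene probe set.

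**Figure D4:**
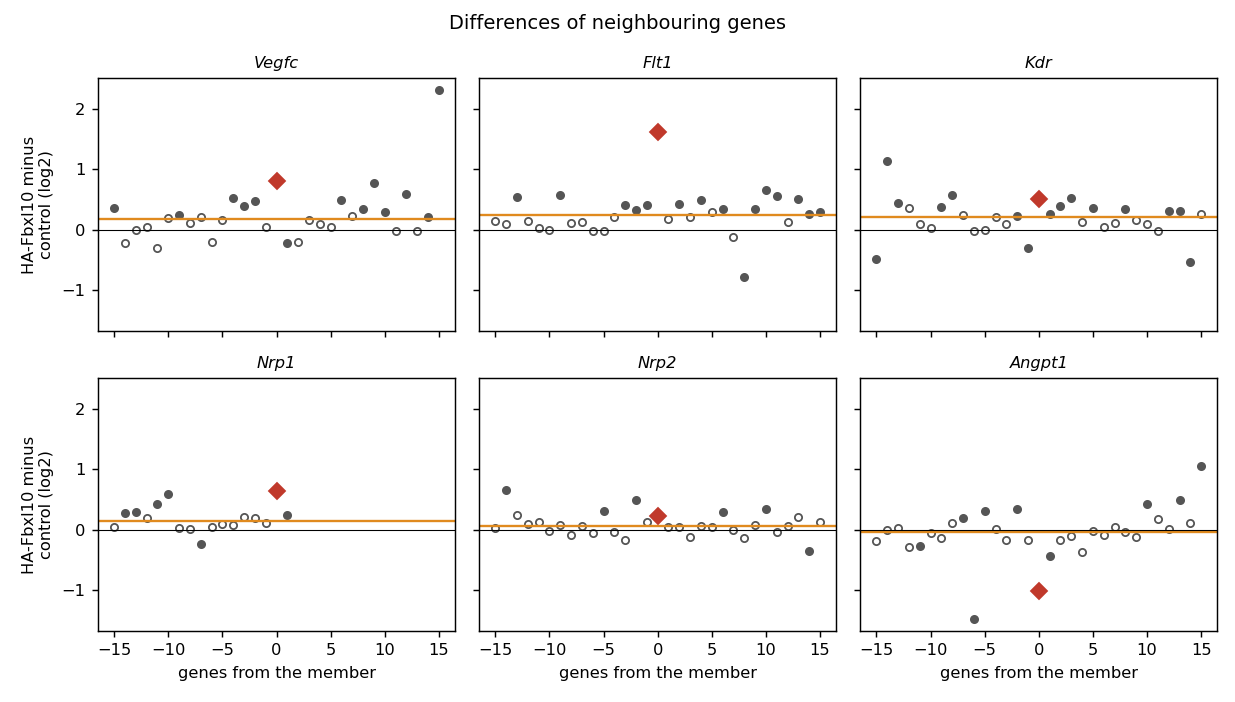
Log2 difference, HA-Fbxl10 minus control, for each called gene (red diamond) and its neighbours above the median level, by their order along the chromosome (filled, past the threshold; open, not past it), with the neighbours' median (orange line). The neighbours of Flt1, Kdr, Vegfc and Nrp1 had medians of 0.24, 0.22, 0.18 and 0.15, and those of Angpt1 a median of -0.03.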

How the data were processed

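Per the labels' protocols, 300 ng of RNA was used per array. The authors deposited log2 values, 1 per probe set, which were computed by RMA according to the submitters' processing notes, with version, settings and genome build not given in the sources used here. RMA equalises the arrays' distributions, so a shift shared by most genes cannot be seen, and it compresses low values. The platform annotation assigns a single gene to 21789 of 35556 probe sets, which gave 19936 genes, named through RefSeq (GRCm38.p6). Promoter sequences are RefSeq's, and 9 of the 10 members had one.

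HA-Fbxl10 arrays were tested against control arrays in R 4.3.3 with limma 3.58.1, using lmFit and eBayes, two-sided p-values with Benjamini-Hochberg adjustment over all genes, and no filter. On simulated data for HA-Fbxl10 against control with 19936 genes and 200 changed ones, all above the median level, the test recovered 74.2% of changes of 0.5 and 100% of changes of 1 or 2 on the log2 scale. It made 10 false calls among 193. The simulation changed a far smaller share of genes than the 21.1% called in the data. Its genes also varied independently of one another, so its rates need not hold for the data. The members and gene lists were chosen with earlier results of these data known. From each list the text names the 2 largest rises and 2 largest falls past the threshold, and for each called member its nearest neighbours and the 2 genes with the most similar profile. The alternatives tried were other normalisations, probe set rules, variance models, array weights, the replicate number, positional medians, a dim-gene filter, a threshold of 0.01 and leaving out each array. The number of arrays limits the precision, and no batch is recorded in the table or labels.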

Additional observations from a re-analysis of the deposited data

How the results depend on the processing

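With an adjusted p of 0.01 the counts over all genes were 1227 higher and 1309 lower, against 2097 and 2111, and among the members 4 higher and 1 lower. Subtracting array medians, which shifted the differences by 0.05, gave 2650 higher and 1560 lower (62.9% higher, against 49.8%), and the 10 members kept their calls and directions. Leaving out the dimmest 30% of genes removed Pgf, Kdr and Flt4. Removing the running median of neighbours or the chromosome medians gave 2 members called lower, Vegfa besides Angpt1. With the lower quartile of all genes as the background gauge, 0 members lay near background in HA-Fbxl10 cells and 0 in control cells, against Pgf in HA-Fbxl10 cells and Kdr in control cells. Among the members the difference of Vegfb ran from -0.000115 to 0.083 and that of Flt4 from -0.30 to 0.0025 when single arrays were left out. With the running median removed, Vhl had 0.043, Neil3 -0.15, Pard3 -0.10, Pomp -0.044 and Ino80d -0.030, and with chromosome medians removed Neil3 had -0.082 and Pard3 -0.0053, each with its sign turned. These steps subtract the median of genes on the same chromosome, so a small difference can change sign. Near a chromosome end, as for Pard3, the running window was cut short and held far fewer genes. The cause of the shifts shared along chromosomes was not tested. With the replicate number as a block, 1667 genes were higher and 1730 lower, and the adjusted p of Nrp2 was 0.0895. Of the HA-Fbxl10 samples 0 of 3 correlated best with the control sample of the same number. The r of deviations was -0.28 to 0.09 for the same number and -0.22 to 0.28 for other numbers. No pairing by number was thus seen, but 3 arrays per group are too few to exclude it.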

Other observations

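The genes whose profile over the 6 arrays lay closest to that of each called member, by the root-mean-square difference of log2 values centred on the gene's mean, are given as values. Closest to Flt1 were 3830403N18Rik (0.065), with a difference of 1.61, and Bmper (0.107), which encodes a BMP-binding protein, with a difference of 1.54. Closest to Vegfc were Adgra2 (0.031), which encodes an adhesion receptor of brain endothelium, and Pxk (0.032), with differences of 0.77 and 0.76. Closest to Kdr were Usp42 (0.020) and Nampt (0.031). Closest to Nrp1 were Plcb4 (0.023) and Papss2 (0.025), and closest to Nrp2 were Dock1 (0.013) and Arid1b (0.014). Closest to Angpt1 were Adam8 (0.042), with a difference of -0.97, and the tissue plasminogen activator gene Plat (0.050), with a difference of -1.04. This measure is led by the size of the group difference, so it picks genes with a like change and says little about single arrays.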
